A study of Homo sapiens with 2 samples.

Results

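RRAD and 8 related small GTPases were followed in H1299 cells that had received an EGR1 plasmid and in H1299 cells that had received the empty plasmid. The members were every probe set annotated to RRAD, GEM, REM2, RASD1, RASD2, RHOB, RND1, RND3 or DIRAS3, which came to 18 of 44988 probe sets with 1 gene symbol, or 9 of 18132 genes. H1299 is an established human line of non-small cell lung carcinoma that lacks p53. In the EGR1 sample the cells were transiently transfected, with a lipid reagent, with a pcDNA vector carrying the transcription factor EGR1, and in the empty-vector sample with pcDNA3.1 alone; both were collected after 48 hours, and 2 µg of total RNA from each was converted to biotin-labelled cRNA. Neither the share of cells that took up plasmid nor any pooling of cultures is given in the sources used here. The study's question was which genes respond to EGR1 and could lower the malignancy of such cells.

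Each group held 1 Affymetrix array, so no difference below has a replicate error or a test, and the number of arrays limits the precision. The genes were chosen by their family and with the log2 differences between these same arrays in view, so the values are a description and support nothing beyond themselves. Levels are the deposited log2 values from RMA (robust multi-array average), in which probes of a set are summarised after background correction and normalization. The RMA scale is arbitrary for each probe set. Apart from the choice of a brightest probe set and the common floor given below, levels were not ranked between genes. A difference is the log2 level in the EGR1 array minus that in the empty-vector array. The brightest probe set stood for a gene, and a mean level of at least 5.22 (the 40th percentile of all probe sets, here the floor) was required for counting it. Fewer cells with a transcript and less transcript per cell cannot be told apart in such bulk RNA.

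Small GTPases switch between a GTP-bound and a GDP-bound state and pass signals on to effectors while GTP is bound. RRAD, GEM and REM2 belong to the RGK group, whose members bind the beta subunits of voltage-gated calcium channels and lower calcium current. RASD1 and RASD2 are Ras-like proteins linked to G-protein signalling, RHOB is a short-lived endosomal GTPase induced by growth factors and DNA damage, RND1 and RND3 are atypical GTPases that do not hydrolyse GTP, and DIRAS3 is an imprinted Ras-like growth suppressor. Several of these genes, among them RHOB, RND3 and GEM, are known to be induced quickly by serum or stress, and RRAD is a known p53 target that is silenced in many lung cancers.

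As a check of the transfection, the 6 EGR1 probe sets did not move together. Of these, 11717861_a_at read 11.43 in the EGR1 array and 7.70 in the empty-vector array, and 11751643_x_at read 9.92 in the EGR1 array and 7.17 in the empty-vector array, whereas the other 4 had differences from -0.39 to -0.20. The brightest EGR1 probe set, 11717860_a_at, was among those 4, at 10.12 in the EGR1 array and 10.51 in the empty-vector array (difference -0.39). By the brightest-set rule EGR1 itself is therefore not among the genes counted below as 2-fold higher, nor ranked above RRAD. Where the probe sets lie relative to the plasmid insert was not analysed here. Markers of a lung carcinoma line were mixed: VIM, KRT18, KRT8 and KRT19 lay past the floor in both arrays, of which KRT18 read 12.47 in the EGR1 array and 10.70 in the empty-vector array and KRT8 9.97 in the EGR1 array and 7.97 in the empty-vector array, and the epithelial markers EPCAM (3.75 in the EGR1 array, 4.14 in the empty-vector array) and CDH1 (3.71 in the EGR1 array, 4.004 in the empty-vector array) lay under it in both. Of the fibroblast markers 0 of 5 reached the floor in the EGR1 array and 1 of 5 in the empty-vector array, of the leukocyte markers measured 1 of 3 and 0 of 3, of the endothelial markers 3 of 4 in each array, of the lung differentiation markers 4 of 6 in each, and of the neuroendocrine markers 2 of 4 in each. Reaching the floor is therefore not a call that a gene is expressed. Summed over their measured genes, the log2 levels were 49.2 and 45.9 for the carcinoma line list, 21.8 and 21.9 for the fibroblast list, 12.2 and 12.1 for the leukocyte list, 21.9 and 21.8 for the endothelial list, 33.0 and 32.5 for the lung differentiation list and 23.3 and 22.9 for the neuroendocrine list in the EGR1 and empty-vector arrays. In the carcinoma line list KRT8 (difference 2.00), KRT18 (1.76) and KRT19 (0.24) were higher in the EGR1 array, as were RRAD and RASD1. VIM (-0.07) was lower. EPCAM (-0.39) and CDH1 (-0.29) lay under the floor in both arrays, so no direction was read from them. The median of that list, with EPCAM and CDH1 included, was 0.09. The part of these lists in the differences below was not tested.

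RRAD and RASD1 were the 2 members at or beyond 2-fold, both higher in the EGR1 array, and the other 5 members past the floor were all under 1.5-fold. Among all 12652 genes past the floor, 0.348% were at least 2-fold higher and 0.0079% at least 2-fold lower, and 1.17% were at or beyond 1.5-fold in either direction. The rule for choosing these genes used the same contrast, so nothing is read from the members' count against those shares. The 2 remaining genes, RASD2 and DIRAS3, lay under the floor. By their brightest probe sets 5 of the 9 genes were above 0, 3 below and 1 at exactly 0, with a median of 0.04. Of all 18132 genes 47.6% were above 0, and their median was 0. Over single probe sets 8 of 18 were above 0 and 9 below.

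**Figure D1:**
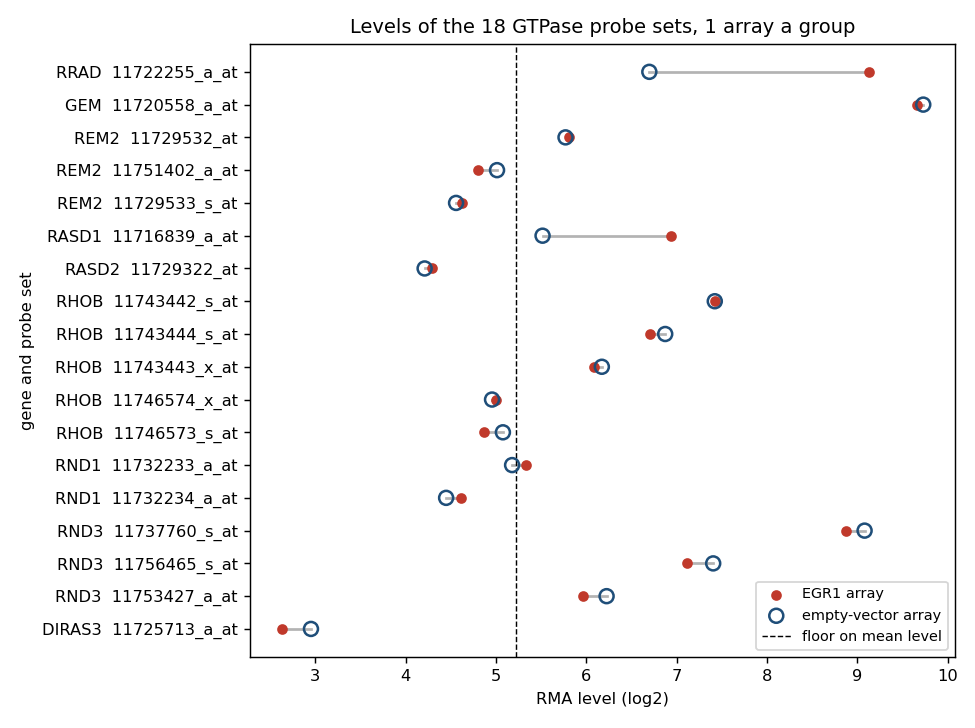
Log2 RMA level (x axis) of each of the 18 probe sets (rows, with their gene) in the EGR1 array (filled red points) and the empty-vector array (open blue circles), 1 array a group; the dashed line is the floor of 5.22. RRAD and RASD1 have long bars between their 2 points, and in every other row the points lie within 0.32 of each other.

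RRAD, the founding RGK protein, was first described in skeletal muscle of patients with diabetes. Its 1 probe set, 11722255_a_at, read 9.13 in the EGR1 array and 6.70 in the empty-vector array. Both values lay past the floor, which is not a call that RRAD is expressed. The log2 difference was 2.43, a 5.39-fold higher level in the EGR1 array, and it ranked 5th from the highest among genes past the floor. With 1 probe set there is no second measurement of RRAD on these arrays.

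The other RGK genes did not share this difference. GEM, which is known as a mitogen-induced GTPase, also had 1 probe set, and it read 9.66 in the EGR1 array and 9.73 in the empty-vector array (difference -0.07). REM2, an activity-regulated RGK gene of neurons, read 5.81 in the EGR1 array and 5.77 in the empty-vector array by its brightest probe set (0.04). Its other probe sets were under the floor in both arrays, one at 4.81 in the EGR1 array against 5.01 in the empty-vector array and the other at 4.62 against 4.56, so the 3 REM2 probe sets lay on both sides of 0 (SD 0.15 between probe sets). For scale, the differences of a gene's own probe sets had a pooled SD of 0.15 over 7113 genes (those with several sets past the floor). That SD holds any disagreement between probe sets of a gene on these 2 arrays, and no error between cultures or repeated arrays. REM1, the remaining RGK gene and no member here, was under the floor in both arrays at 4.79 in the EGR1 array and 5.19 in the empty-vector array. Of the 4 RGK genes 3 were past the floor, and 1 of these, RRAD, was past 2-fold. Of all genes past the floor 0.348% were at least 2-fold higher. RRAD was chosen with this contrast in view, so nothing is read from the count about the RGK group.

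RASD1, also called Dexras1, is a dexamethasone-induced Ras-like protein that acts on inhibitory G proteins and binds the adaptor of neuronal nitric oxide synthase. Its 1 probe set, 11716839_a_at, read 6.94 in the EGR1 array and 5.52 in the empty-vector array. The empty-vector value was only slightly above the floor. The log2 difference of 1.42, or 2.68-fold, ranked 20th from the highest among genes past the floor. RASD2, the closely related striatal GTPase Rhes, could not be compared: its 1 probe set read 4.29 in the EGR1 array and 4.21 in the empty-vector array, both under the floor. A level under the floor cannot be separated from background here, so for RASD2 the arrays give no usable direction.

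**Figure D2:**
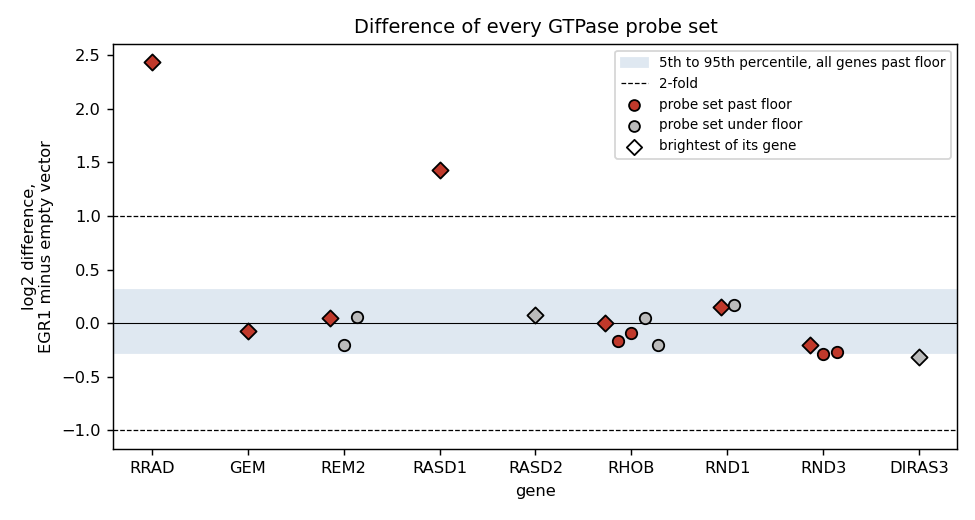
Log2 difference, EGR1 minus empty vector (y axis), of each probe set of the 9 genes (x axis); diamonds are the brightest probe set of a gene, grey points lie under the floor, and the blue band runs from the 5th to the 95th percentile of all genes past the floor (-0.28 to 0.31). RRAD at 2.43 and RASD1 at 1.42 stand above the dashed 2-fold line, and the 3 RND3 probe sets all lie below 0.

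The promoter window of RASD1 is shown because it is the one member past 2-fold for which a RefSeq window was used. It covers 250 bases before to 50 bases after the annotated start, at chr17:17496346-17496645 of GRCh38.p14, minus strand, written 5′ to 3′ with matches to the GC box GGGCGG in capitals.
RASD1: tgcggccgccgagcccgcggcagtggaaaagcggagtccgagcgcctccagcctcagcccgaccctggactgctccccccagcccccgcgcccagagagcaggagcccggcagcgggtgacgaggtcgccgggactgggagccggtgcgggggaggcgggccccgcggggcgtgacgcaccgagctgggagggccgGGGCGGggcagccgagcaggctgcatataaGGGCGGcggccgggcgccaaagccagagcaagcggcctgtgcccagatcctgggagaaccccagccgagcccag
GGGCGG begins, on the gene's strand, at positions -54 and -24, where -1 is the last base before the start. It is a common match, held on either strand by 44.9% of 34943 distinct promoter windows of the same length. The window was 76.3% G and C, above 92.7% of all windows (median 58.7%). Neither form of the EGR1 motif searched, GCGTGGGCG or GCGGGGGCG, was in these letters. These forms were found on either strand in 0.796% and 5.06% of all windows, and GGGCGG overlaps GCGGGGGCG where a further G follows it. Windows were used for 6 of the 9 genes. A filter by chromosome was applied to the member windows, and no window of RRAD, GEM or RND1 was searched. Nothing is therefore said of motifs in RRAD, GEM or RND1.

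RND3 was the one member with several probe sets past the floor and every one of them below 0. RND3 binds and inhibits the kinase ROCK1 and loosens actin stress fibres. Its brightest probe set read 8.88 in the EGR1 array and 9.08 in the empty-vector array, the next 7.12 in the EGR1 array and 7.41 in the empty-vector array, and the third 5.96 in the EGR1 array and 6.23 in the empty-vector array. All 3 were lower in the EGR1 array, with log2 differences of -0.20, -0.29 and -0.27. These averaged -0.25 with an SD of 0.04 over the probe sets. Neither this SD nor the pooled SD of 0.15 holds error between cultures or arrays, so neither shows how repeatable the difference is. The level was only 1.15-fold lower by the brightest probe set, and 23.2% of genes past the floor had an absolute difference at least as large. Of the 3 probe sets, 2 carry the suffix _s_at, which marks sets that can bind related transcripts.

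The RND3 window is shown for the serum response factor site known as the CArG box, in capitals, which begins at position -72 from the annotated start of this window at chr2:150487646-150487945 of GRCh38.p14, minus strand.
RND3: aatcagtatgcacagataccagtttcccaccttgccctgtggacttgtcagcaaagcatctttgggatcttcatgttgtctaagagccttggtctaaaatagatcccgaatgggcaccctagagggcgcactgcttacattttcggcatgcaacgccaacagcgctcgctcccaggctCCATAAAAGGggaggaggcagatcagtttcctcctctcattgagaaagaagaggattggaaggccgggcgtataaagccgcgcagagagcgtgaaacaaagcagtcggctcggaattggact
A CArG box, searched as a pair of C, any 6 bases of A or T and a pair of G, reads as a match on both strands and was held by 1.30% of all windows. A second RefSeq start of RND3 lies nearby, and its window holds the same letters beginning at position -100. The cyclic AMP response element TGACGTCA, found in 1.84% of all windows, matched in none of the windows used, which covered 6 of the 9 genes.

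RND1, which binds plexins and weakens cell adhesion, sat at the floor. Its brighter probe set read 5.33 in the EGR1 array, past the floor, and 5.18 in the empty-vector array, under it. The other read 4.62 in the EGR1 array and 4.45 in the empty-vector array, under the floor in both. The differences were 0.15 and 0.17, near the pooled SD of 0.15 between probe sets, and 37.3% of genes past the floor differed by as much or more than the brighter one. RND1 and RND3 thus differed in sign on these arrays, although the RND1 values rest on dim signal.

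RHOB, which carries growth-factor receptors through endosomes and is often low in advanced lung cancers, was the member with the most probe sets. The brightest read 7.42 in both arrays, identical to the last digit, as did 5.29% of all probe sets. The next read 6.71 in the EGR1 array and 6.87 in the empty-vector array, and the third read 6.08 in the EGR1 array and 6.17 in the empty-vector array. The 2 under the floor read 5.003 and 4.87 in the EGR1 array and 4.96 and 5.08 in the empty-vector array. Of the 5, then, 1 was above 0, 3 were below and 1 was at 0, with differences from -0.20 to 0.05 and an average of -0.08 (SD 0.11 over the probe sets). All 5 have the suffix _s_at or _x_at. The RHOB promoter window (chr2:20446824-20447123, plus strand) held GGGCGG on the opposite strand at position -139 and on the gene's strand at position -121, as a common match, and no EGR1 motif.

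DIRAS3, also known as ARHI, is expressed from the paternal allele and is lost in many ovarian and breast cancers. Its 1 probe set read 2.64 in the EGR1 array and 2.95 in the empty-vector array. The difference of -0.32 is of a signal under the floor in both arrays, and no direction was read from it. Its window is shown because it was the only one of the 6 genes' windows with an EGR1 motif, GCGGGGGCG on the opposite strand, which begins at position -65 and appears here in capitals as its reverse complement (chr1:68050578-68050877, GRCh38.p14, minus strand).
DIRAS3: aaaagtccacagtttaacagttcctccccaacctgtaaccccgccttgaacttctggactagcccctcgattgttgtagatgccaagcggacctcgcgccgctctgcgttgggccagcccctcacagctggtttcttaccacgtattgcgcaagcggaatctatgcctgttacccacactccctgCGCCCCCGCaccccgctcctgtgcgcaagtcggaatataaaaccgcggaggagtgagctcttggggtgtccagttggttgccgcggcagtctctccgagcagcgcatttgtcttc
The motif was held by 5.06% of all windows, and a match says nothing about whether EGR1 binds there. The windows of REM2 and RASD2 held none of the motifs searched.

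**Figure D3:**
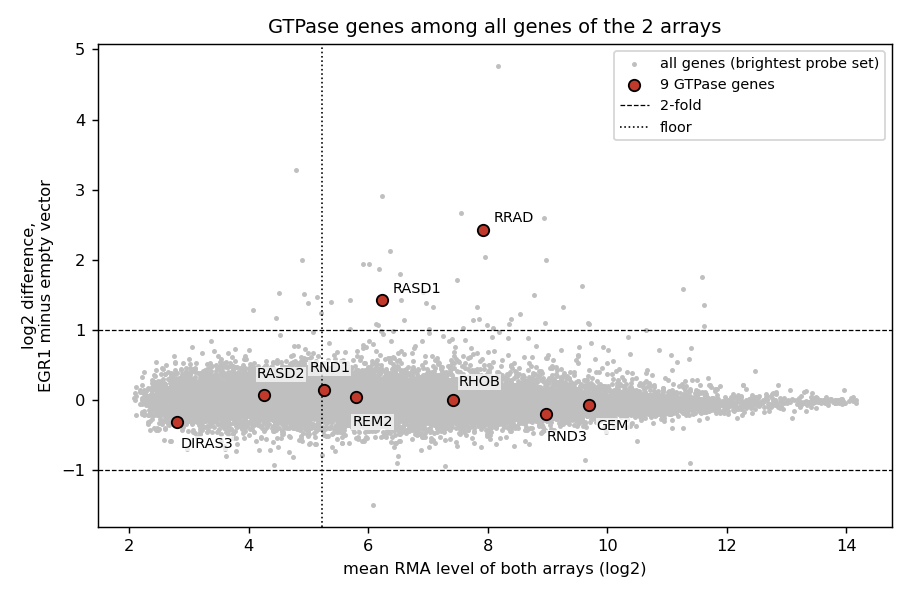
Log2 difference, EGR1 minus empty vector (y axis), against the mean log2 level of both arrays (x axis) for the brightest probe set of all 18132 genes (grey) and the 9 GTPase genes (red, named); dashed lines mark 2-fold and the dotted line the floor of 5.22. RRAD and RASD1 lie above the cloud of genes at their level and the other 7 within it.

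Other small GTPases were examined from lists chosen with earlier results known. Of 29 other Ras-family genes listed, 27 were measured and 21 were past the floor, and 0 of the 21 reached 1.5-fold. With 1.17% of all genes past the floor at 1.5-fold, a count of 0 in this list or in those below is near the background and is no result about the list. Their median over the 27 was 0, with 12 above 0 and 13 below. RASL10A, which is expressed mainly in brain, was highest at 5.71 in the EGR1 array and 5.23 in the empty-vector array (1.396-fold). It had 1 probe set, and its empty-vector value was barely above the floor. MRAS, which forms a phosphatase complex with SHOC2, read 7.05 in the EGR1 array and 6.60 in the empty-vector array (1.37-fold), although its 3 probe sets ranged from -0.08 to 0.45. RERG, an oestrogen-regulated growth inhibitor, and RIT1 were at -0.18 and -0.17.

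Genes for the partners of the RGK proteins were listed as well. Among them (calcium channel subunits, calmodulin, 14-3-3 proteins, Ca2+/calmodulin kinase and ROCK kinases), 0 of 20 past the floor reached 1.5-fold, beside 1.17% of all genes, and the median over 22 measured genes was -0.04 (10 above 0, 12 below). The calcium channel beta subunits CACNB3 and CACNB1 were at 0.21 and 0.20, and the 14-3-3 protein SFN at 0.21. The probe sets of CACNB1 ranged from -0.06 to 0.20 and those of CACNB3 from 0.09 to 0.21. ROCK1, the kinase that RND3 inhibits, was lowest at 9.58 in the EGR1 array and 9.85 in the empty-vector array (difference -0.27), against 0.02 by its other probe set.

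For RASD partners 0 of 13 past the floor reached 1.5-fold, again beside 1.17% of all genes, and the median over 15 genes was 0.04. The adenylate cyclase ADCY6 was at 0.32 (0 by its other probe set), MTOR at -0.26, ADCY9 at -0.22 and the inhibitory G-protein subunit GNAI2 at 0.19. Over all their probe sets MTOR ranged from -0.26 to -0.04, ADCY9 from -0.22 to 0 and GNAI2 from -0.14 to 0.19. Prenylation enzymes and chaperones, which attach and handle the lipid tail of small GTPases, had a median of -0.11 over 6 genes, with 2 above 0 and 4 below and 0 at 1.5-fold. PGGT1B, a subunit of the enzyme that adds the geranylgeranyl lipid, was lowest at 7.02 in the EGR1 array and 7.45 in the empty-vector array (difference -0.43), against 0.12 by its other probe set. ICMT, PDE6D and RCE1 were at -0.19, -0.15 and 0.14, with -0.10 by the other RCE1 probe set.

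**Figure D4:**
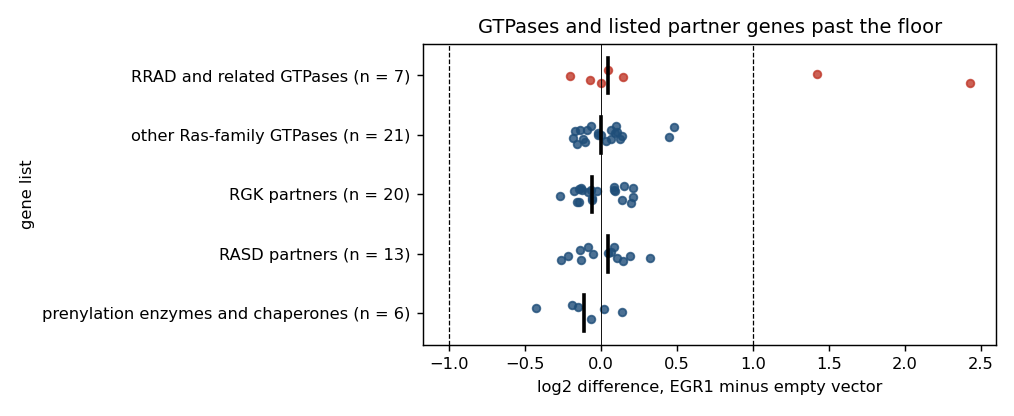
Log2 difference, EGR1 minus empty vector (x axis), of each gene past the floor among RRAD and the related GTPases (top row, red) and in 4 related lists (other rows, blue; n is the number of genes, points are genes by their brightest probe set, black bars are medians, and dashed lines mark 2-fold). RRAD and RASD1, both in the top row, are the 2 points past 2-fold, and every gene of the 4 related lists lies between -0.43 and 0.48.

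With 2 arrays, likeness to RRAD can be measured only by the size of the difference, and many genes could share it by coincidence. The 4 genes past the floor with the closest differences were GDF15 (2.60), CDKN1C (2.67), SERPINA1 (2.12) and HEY1 (2.05), against 2.43 for RRAD.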

How the data were processed

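The authors deposited log2 probe-set levels made with RMA, per the submitters' processing notes, for 1 array a group. Version, settings, probe definitions and genome build: not given in the sources used here. Column medians were 5.79 (EGR1) and 5.77 (empty vector). Gene names came from the platform annotation. Of 49395 probe sets 102 were controls, 44988 had 1 gene symbol and 1832 several; 44961 of the 44988 matched a RefSeq gene table (GRCh38.p14) by Entrez ID.

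The members, lists and rules were chosen with earlier results of these data known. All member probe sets were reported, with up to 4 genes past the floor of the largest absolute difference in each list and the 4 closest to RRAD; REM1 was named outside that rule. Of the related lists 3 are not reported here. Differences were computed with pandas 2.3.3 and NumPy 2.4.6 in Python 3.11.15. The code was checked on simulated data with large planted changes, which says nothing about error between arrays or cultures. Promoter windows came from RefSeq (GRCh38.p14), with a filter by chromosome on the windows of members. Alternatives were the mean of all probe sets, no _x_at or _s_at sets, lowess correction (statsmodels 0.14.6, fraction 0.3), quantile normalization, 3 treatments of the floor and a 1.5-fold threshold.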

Additional observations from a re-analysis of the deposited data

How the results depend on the processing

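RRAD differed by 2.43 to 2.48 and RASD1 by 1.42 to 1.43 under 7 alternatives, and no called member changed direction. With the floor at the 60th percentile (6.38) RASD1 was under it, which left 1 member at 2-fold, RRAD. DIRAS3 became 0 when values were raised to the floor. RND3 stayed below 0 (-0.27 to -0.15) and GEM too (-0.07 to -0.02), RND1 stayed above 0 (0.10 to 0.16), and REM2 (-0.03 to 0.04) and RHOB (-0.08 to 0.04, with no value left without _x_at and _s_at sets) had no settled direction. At 1.5-fold 148 genes were past the threshold, against 45 at 2-fold. List medians moved by less than 0.15 under every alternative, but of the 5 lists (the RGK family and the 4 related lists) only the prenylation genes kept the sign of their median throughout. No paired analysis was possible because each group held 1 array. The arrays' signal over background limits RASD2, DIRAS3, RND1 and the dimmer REM2 and RHOB probe sets.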
